A study of Mus musculus with 2 samples.

Results

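The unfolded protein and heat shock response was described across 38 genes in mouse bone marrow-derived macrophages, out of 55536 annotated genes, of which 22028 were protein-coding. Members were taken by gene symbol and joined by gene identifier to the gene tables, by a rule that uses no measured value. The list of members was chosen with earlier results of these data known. All 38 symbols were found, under 39 gene identifiers. A further Ddit3 identifier, which held 0 and 0.9 counts, was left aside. The members fall into 16 chaperones and folding enzymes of the endoplasmic reticulum (ER), 5 sensors and transcription factors of ER stress, 5 outputs of the integrated stress response, 9 cytosolic chaperones, the 2 mitochondrial chaperonin genes and the heat shock factor Hsf1.

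PolyA-selected RNA came from C57BL/6J macrophages grown from bone marrow, in 1 group with 2 biological replicates. Per the description in the labels the cells met Lipid A at 100 ng/ml for 12 h, were washed and left for 12 h, and met Lipid A at 100 ng/ml again for 300 min, while the treatment field of the labels names lipoprotein A. The replicates share a donor identifier but have their own biosample identifiers, and neither sex nor age is given in the labels. No unstimulated, singly stimulated or washed-out cells were analysed here, so every value below is a level in restimulated macrophages, or a difference between its replicates, and none is a response to Lipid A.

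The gene tables held 50503159 expected counts in replicate 1 and 46342331 in replicate 2. Expected counts split reads shared between genes, so they need not be whole. All 8 macrophage markers reached 10 TPM (a level corrected for transcript length and scaled to the same total in each library) in both libraries, with a summed level of 16253 and 17531 TPM in replicates 1 and 2. Summed levels of markers of other cells were 2.25 and 3.37 TPM for 6 plasma and B cell genes, 0.94 and 1.08 TPM for 5 fibroblast genes, 0.72 and 0.89 TPM for 4 dendritic cell genes, and 0.59 and 0.01 TPM for 4 T and NK cell genes. The 6 neutrophil markers summed to 61.9 TPM in replicate 1 and 4.39 TPM in replicate 2. Most of this was S100a9, at 37.9 and 2.23 TPM, and S100a8, at 23.1 and 1.57 TPM, while Ly6g had 0 TPM in both libraries and Mpo 0.13 and 0 TPM.

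Proteins that enter the ER fold there with the help of chaperones, lectins and disulfide isomerases. When unfolded proteins build up, the ER membrane sensors IRE1 (gene Ern1), PERK (gene Eif2ak3) and ATF6 (gene Atf6) start the unfolded protein response: IRE1 splices the Xbp1 mRNA, PERK slows translation and lets ATF4 be made, and ATF6 is cut to release a transcription factor. In the cytosol, HSF1 drives the heat shock genes. Toll-like receptor signals are known to engage IRE1 and XBP1 in macrophages, which secrete large amounts of protein when activated.

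Elements of the unfolded protein and heat shock responses were searched in the members' promoters. ATF6 and XBP1 act through the ER stress response element (ERSE), written as CCAAT, then 9 bases of any kind, then CCACG. The window searched ran from 250 bases before to 50 bases after the RefSeq transcription start (build GRCm38.p6), on both strands. Of the 38 members, 31 had such a window, and Hspa8, Hsp90aa1, Hsp90ab1, Hsf1, Hyou1, Manf and Atf6 had none. ERSE letters were found in 7 members, all of them ER genes, out of 14 ER genes with a window. Over all 27025 genes with a window, 37 (0.137%) held a match, these 7 included. The element was defined on promoters of ER chaperones, so the matches describe these promoters and are no independent evidence of ER stress in these cells. The matches are shown with 20 bases on either side, read 5′ to 3′ in the direction of the element, with CCAAT and CCACG in capitals.

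Hspa5 (chr2:34772005-34772063, plus strand): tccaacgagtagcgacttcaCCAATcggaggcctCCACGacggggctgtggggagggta
Hsp90b1 (chr10:86705513-86705571, plus strand): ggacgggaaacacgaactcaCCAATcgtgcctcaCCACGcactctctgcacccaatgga
Hsp90b1 (chr10:86705618-86705676, minus strand): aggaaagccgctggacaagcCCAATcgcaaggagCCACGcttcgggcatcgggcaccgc
Calr (chr8:84847055-84847113, plus strand): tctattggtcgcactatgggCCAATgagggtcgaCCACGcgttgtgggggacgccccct
Canx (chr11:50325780-50325838, minus strand): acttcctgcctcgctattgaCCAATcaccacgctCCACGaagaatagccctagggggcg
Pdia6 (chr12:17266471-17266529, plus strand): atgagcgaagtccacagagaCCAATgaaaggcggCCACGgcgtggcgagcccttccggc
Creld2 (chr15:88819500-88819558, minus strand): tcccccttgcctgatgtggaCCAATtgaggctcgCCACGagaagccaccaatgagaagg
Dnajc3 (chr14:118937807-118937865, plus strand): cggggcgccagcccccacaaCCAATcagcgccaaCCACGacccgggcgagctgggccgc

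The Hspa5 match began 65 bases before the start and was the nearest, and the farther of the Hsp90b1 matches began 212 bases before it. Hsp90b1 was the member with 2 matches, on opposite strands. The shorter element ERSE-II, ATTGG, then 1 base, then CCACG, was found in Herpud1 and Dnajb11, against 12 genes (0.0444%) among all windows. The Dnajb11 match began 7 bases after the start. The Herpud1 match began 52 bases before the start and is shown with ATTGG and CCACG in capitals.

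Herpud1 (chr8:94386357-94386407, plus strand): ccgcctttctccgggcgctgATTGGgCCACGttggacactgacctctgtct

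The heat shock element was searched as GAA, TTC and GAA, each 2 bases apart, on both strands. It was found in Hsph1, Hspd1 and Hspe1, against 179 genes (0.662%) among all windows. Of the 6 cytosolic chaperones with a window, Hsph1 held a match, and Hspa1a, Hspa1b, Hspb1, Dnaja1 and Dnajb1 did not. The Hsph1 match began 15 or 36 bases after the start, by the start used. Hspa8, Hsp90aa1 and Hsp90ab1 had no window and were not searched. Hspd1 and Hspe1 run in opposite directions and overlap by 112 bp on chromosome 1. A window of each gene held the same 2 overlapping matches, 1 per strand, and another Hspd1 window held none. The match on the plus strand is shown here with the element in capitals. For the amino acid response element bound by ATF4, the letters TGATGNAAT were in 0 of the 31 member windows and in 1.08% of all windows. With the last base left free, as in the usual form of the element (TGATGNAA, a search added after the data were seen), a match was found in 4 members, Asns, Trib3, Chac1 and Herpud1, and in 4.51% of all windows. Asns, Trib3 and Chac1 are 3 of the 5 integrated stress response outputs, and the Asns match began 23 bases before the start. A match is a description of the sequence, and no match says only that these letters were not in this window.

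Hspd1 and Hspe1 (chr1:55088044-55088096, plus strand): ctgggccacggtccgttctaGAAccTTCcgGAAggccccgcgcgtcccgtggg

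Many ER chaperones and the constitutive cytosolic chaperones were abundant in these macrophages. The strictly heat-inducible chaperones and several outputs of the integrated stress response were low. Without a control group, whether any of these levels was induced was not tested. Of the 38 members, 36 reached 1 TPM in both libraries, as did 44.4% of protein-coding genes. A level of 10 TPM was reached in both libraries by 29 members and by 27.3% of protein-coding genes, and a level of 100 TPM by 16 members and by 5.42% of protein-coding genes. Members were chosen as known chaperone and stress genes, so these counts describe the set and mark nothing particular to it. Levels ran from Hspa8, ranked 66 among 22028 protein-coding genes, to Hspb1 with 1 read in each library.

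**Figure D1:**
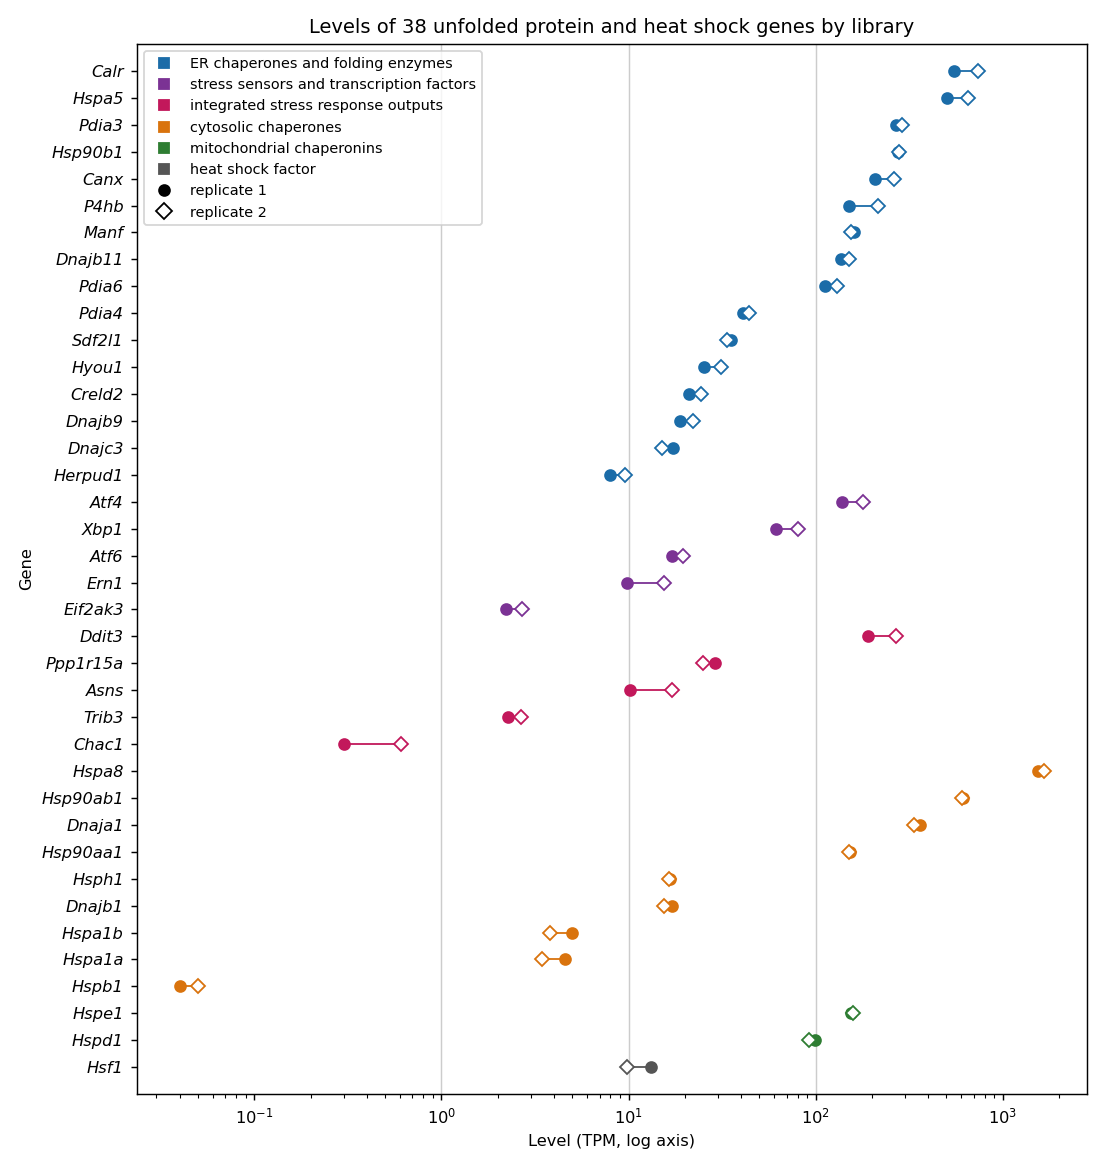
Level of each of the 38 genes in TPM on a log axis, in replicate 1 (filled circles) and replicate 2 (open diamonds), ordered by role and then by mean level, with vertical lines at 1, 10 and 100 TPM. Hspa8 lies highest at 1551 and 1665 TPM, and Chac1 and Hspb1 lie under 1 TPM in both libraries.

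ER chaperones and folding enzymes had a median of 124 and 140.5 TPM in replicates 1 and 2, with 15 of 16 at 10 TPM or more and 9 of 16 at 100 TPM or more in both libraries. Calr, the calcium-binding lectin chaperone calreticulin, stood at 552 and 736 TPM. Hspa5 (chromosome 2, 34771970 to 34777547), which encodes the ER Hsp70 BiP, stood at 504 and 654 TPM and ranked 240 among protein-coding genes. These 2 genes held 41.7% and 45.6% of the summed ER level.

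Hsp90b1, the ER Hsp90 (GRP94), was close in the libraries, at 275 and 279 TPM. Canx, the membrane-bound partner of calreticulin in the folding of glycoproteins, had 207 and 261 TPM. Calr exceeded Canx 2.67-fold and 2.82-fold within replicates 1 and 2, summed over all transcripts of each gene. Transcripts not annotated as protein-coding held 22.7% and 34.3% of the Calr level and 3.92% and 14.6% of the Canx level. The Hsp110-type exchange factor Hyou1, which recharges BiP, was at 25.3 and 31.3 TPM, so that Hspa5 exceeded it 20.0-fold and 20.9-fold.

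The disulfide isomerases, which form and shuffle disulfide bonds, covered a wide range of levels. Pdia3, the isomerase that works with calnexin and calreticulin, stood at 269 and 290.5 TPM, P4hb, the classical isomerase, at 151 and 214 TPM, Pdia6 at 112 and 129 TPM and Pdia4 at 40.7 and 43.9 TPM. The order of these 4 genes was the same in both libraries.

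The J-domain proteins, which hand clients to BiP or regulate its cycle, were led by Dnajb11 at 136 and 151 TPM, with Dnajb9 at 18.9 and 22.2 TPM and Dnajc3 at 17.3 and 15.1 TPM. Dnajb9 stood far below Dnajb11 in both libraries. Manf, a secreted ER stress protein, had 159.5 and 153.5 TPM. Sdf2l1, which works with Dnajb11, had 35.2 and 33.6 TPM, and the disulfide isomerase-like Creld2 had 21.2 and 24.5 TPM. Herpud1, which supports ER-associated degradation, was the lowest ER member at 7.97 and 9.60 TPM and the one below 10 TPM in both libraries.

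Of the 7 ER genes with ERSE matches, Calr, Hspa5, Hsp90b1, Canx and Pdia6 stood at 100 TPM or more in both libraries. The others, Creld2 and Dnajc3, were among the 4 lowest ER members. Of the ER genes with a window but no ERSE match, Pdia3, P4hb and Dnajb11 stood at 100 TPM or more in both libraries. Pdia4, Sdf2l1, Dnajb9 and Herpud1 stood below that level. A relation of the matches to level was not tested.

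The ER stress sensors had lower levels than most of the ER chaperones, and the transcription factors Atf4 and Xbp1 stood above the sensors. Ern1, the IRE1 sensor and nuclease, had 9.85 and 15.5 TPM, Atf6 17.0 and 19.5 TPM and Eif2ak3, the PERK kinase, 2.21 and 2.70 TPM. Ern1 exceeded Eif2ak3 4.46-fold and 5.75-fold in replicates 1 and 2. Atf4, the transcription factor whose translation PERK and related kinases favour, had 138 and 179 TPM and Xbp1 had 61.7 and 80.6 TPM, which was 3.63-fold and 4.13-fold over Atf6. Eif2ak3 was the lowest of these 5 genes and Atf4 the highest in both libraries, and all 5 were higher in replicate 2.

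IRE1 activates Xbp1 by cutting 26 nt out of its mRNA, which shifts the reading frame. The stretch lies in exon 4 of Xbp1-201, and it is shown in capitals with 30 bases on either side, on the plus strand of mm10, as the gene is transcribed.

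Xbp1 (chr11:5524249-5524334): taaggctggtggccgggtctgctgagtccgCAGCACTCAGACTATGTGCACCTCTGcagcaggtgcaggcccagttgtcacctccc

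Read from the annotated start codon, the frame of Xbp1-201 ran for 267 codons with these 26 nt and for 371 codons without them. The annotation used by the authors holds 4 Xbp1 transcripts. The 3 protein-coding ones, Xbp1-201, Xbp1-203 and Xbp1-204, all contain the 26 nt. Xbp1-202, a retained-intron transcript, does not hold them, and whether it spans the site was not checked. No protein-coding transcript in the annotation is therefore the spliced form, and the deposited tables cannot tell spliced from unspliced Xbp1. Xbp1-201 held 96.2% and 96.8% of the Xbp1 level in replicates 1 and 2, at 59.4 and 78.0 TPM. The other 3 transcripts held between 0.571% and 1.57% each.

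The integrated stress response outputs were dominated by Ddit3. Ddit3, which encodes the transcription factor CHOP, stood at 192 and 270 TPM, above its activator Atf4 in both libraries, since Atf4 over Ddit3 was 0.719 and 0.663. It made up 82.1% and 85.6% of the summed level of the 5 outputs. Ppp1r15a, the GADD34 subunit that restores translation, had 29.0 and 25.0 TPM, which was 0.530 and 0.358 of the level of its constitutive counterpart Ppp1r15b. Asns, the asparagine synthetase gene, had 10.1 and 17.0 TPM.

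Trib3, a pseudokinase induced by ATF4 and CHOP, had 2.27 and 2.65 TPM. Chac1, a glutathione-degrading enzyme under ATF4 control, had 0.30 and 0.61 TPM from 15 and 28 reads. The exact 95% Poisson intervals of these reads ran from 8.40 to 24.7 and from 18.6 to 40.5, so they overlapped, and like all such intervals they cover counting error alone. The outputs thus did not share a level: their highest and lowest members were Ddit3 and Chac1 in both libraries.

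In the cytosol, the constitutive chaperones were high and the strictly heat-inducible ones low. Hspa8, the constitutive Hsp70, stood at 1551 and 1665 TPM and held 57.1% and 59.6% of the summed cytosolic level. Hsp90ab1, the constitutive Hsp90, had 609 and 607 TPM, and the more inducible Hsp90aa1 had 153 and 150.4 TPM. The ratio of their levels, summed over all transcripts of each gene, was 4.0 in both libraries. Transcripts not annotated as protein-coding held 6.24% and 28.6% of the Hsp90aa1 level in replicates 1 and 2. Expected counts were 15711 and 10830 for Hsp90aa1 and 49365 and 45076 for Hsp90ab1, so the equal ratio did not extend to counts. Dnaja1, a J-domain partner of Hspa8, had 359.7 and 334 TPM.

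The Hsp70 exchange factor Hsph1 had 16.6 and 16.4 TPM, and Dnajb1, the J-domain protein Hsp40, had 17.0 and 15.5 TPM. The inducible Hsp70 genes Hspa1a and Hspa1b had 4.60 and 3.44 TPM and 4.97 and 3.80 TPM, so that Hspa8 exceeded their sum 162-fold and 230-fold. They lie 9951 bp apart on chromosome 17, and their transcripts were 99.2% identical over 2201 nt, so the split of reads between them is uncertain. The deposited tables give a posterior SD of 10.5 and 9.50 reads for Hspa1a, beside its 451 and 309 reads in replicates 1 and 2. Hspb1, the small heat shock protein Hsp25, had 1 read in each library, below the limit of 3 counts that a count of 0 allows. Hsf1 had 13.2 and 9.84 TPM, which was 1.83-fold and 1.40-fold the level of Hsf2.

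The mitochondrial chaperonin genes Hspe1 (Hsp10) and Hspd1 (Hsp60), which form one folding machine, had 155 and 158 TPM and 98.9 and 92.4 TPM. Hspd1 over Hspe1 was 0.640 and 0.584, and both genes share the divergent promoter shown above. Strand handling is not stated for these tables, so reads from the overlap of the 2 genes may not have been told apart. The Hspe1 transcript also matched AC117239.2 with 99.0% identity over 515 nt. The posterior SD of the Hspe1 count was 1.57 and 1.67 reads, beside 2851 and 2698 reads.

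Between compartments the ER and cytosolic sets were close. The ER members summed to 2531 and 3049.8 TPM and the cytosolic members to 2716 and 2795 TPM. The log2 ratio of ER over cytosolic sums was -0.10 in replicate 1 and 0.13 in replicate 2, so the libraries did not share a direction. For the paired family members it did hold: Hspa5 stood at 0.325 and 0.393 of Hspa8, and Hsp90b1 at 0.451 and 0.459 of Hsp90ab1, so the cytosolic paralog was higher in both families and both libraries.

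Differences between the libraries were measured as the log2 ratio of scaled counts, replicate 2 over replicate 1, across the 12543 genes that passed the filter on low counts (edgeR's filterByExpr and a mean count of 10 or more). Of the 38 members 37 passed, all but Hspb1. The median log2 ratio was 0.14 over these 37 members and 0.00035 over all genes compared, and 24 of the 37 were higher in replicate 2, as were 50.0% of all genes. None of the 37 was 2-fold or more apart, against 4.21% of all genes, although Chac1 passed that line in the second quantification, at 1.04, and by TPM, at 1.02. By scaled counts 3 were 1.5-fold or more apart, against 13.2% of all genes. These 3 were Chac1 at 0.99, Asns at 0.74 and Ern1 at 0.66. With 2 libraries of 1 group this difference has no replicate check and was not tested.

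**Figure D2:**
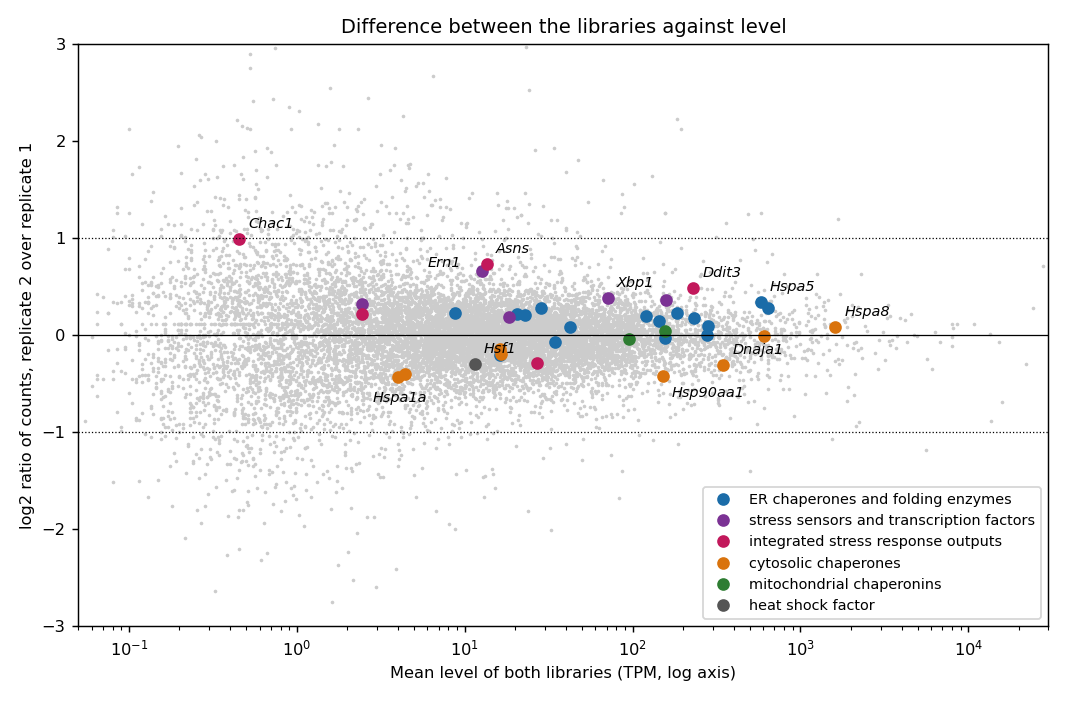
Log2 ratio of scaled counts of replicate 2 over replicate 1 against mean level in TPM on a log axis, for 12534 of the 12543 genes compared (grey points; the others lie outside the axes) and the 37 members that passed the filter, coloured by role. All 37 members lie between the dotted 2-fold lines, and the 3 farthest from 0 on the upper side are Chac1, Asns and Ern1.

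The roles lay to different sides of 0, and the difference between them was not tested. In ER chaperones and folding enzymes 13 of 16 were higher in replicate 2, with a median log2 ratio of 0.19 and a range of -0.21 for Dnajc3 to 0.34 for Hspa5. All 5 sensors and transcription factors were higher in replicate 2, from 0.19 for Atf6 and 0.32 for Eif2ak3 to 0.37 for Atf4, 0.38 for Xbp1 and 0.66 for Ern1. Of the 5 outputs 4 were higher in replicate 2, Ddit3 at 0.49 among them, and Ppp1r15a was the exception at -0.29.

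In cytosolic chaperones 7 of the 8 that passed the filter were higher in replicate 1 (6 of 8 in the second quantification), with a median of -0.25. Hspa1a stood at -0.43, Hsp90aa1 at -0.42, Hspa1b at -0.40 and Dnaja1 at -0.31, and Hspa8 was the exception at 0.08. Hsf1 stood at -0.30, Hspd1 at -0.04 and Hspe1 at 0.04. Of the 6 neutrophil markers 2 passed the filter, S100a8 and S100a9, and they also stood higher in replicate 1, at -3.81 and -4.03. Of the 8 macrophage markers 5 were higher in replicate 1 and 3 in replicate 2, with a median of -0.06 and a range of -0.19 for Itgam to 0.99 for Cd14. The part of these markers in the members' ratios was not tested, and a different share of cells cannot be told apart from a different amount of RNA per cell.

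For most members the ratio was alike whether counts or TPM were used, but for several it was not. Hsp90aa1 stood at -0.42 by counts and at -0.02 by TPM, Dnaja1 at -0.31 and -0.11, and Hsph1 at -0.19 and -0.02. P4hb stood at 0.23 by counts and 0.50 by TPM, Canx at 0.17 and 0.33, and Calr at 0.27 and 0.42. The median over the cytosolic chaperones that passed was -0.25 by counts and -0.06 by TPM. A gene's TPM is the sum over its transcripts, each corrected for its own length, so a read given to a short transcript adds more TPM than a read given to a long one.

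**Figure D3:**
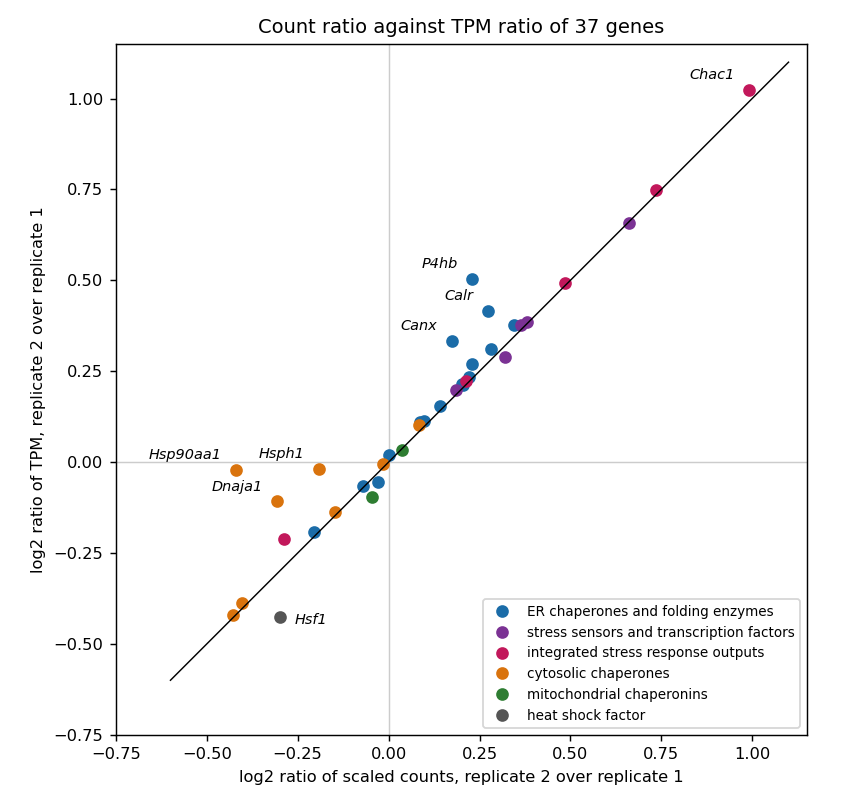
Log2 ratio of TPM against log2 ratio of scaled counts, each replicate 2 over replicate 1, for the 37 members that passed the filter, with the line of equal values. Most members lie on or close to the line, while Hsp90aa1, Dnaja1, Hsph1, P4hb, Calr and Canx lie above it and Hsf1 below it.

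In each of these 6 genes the share of a short transcript differed between the libraries. Hsp90aa1-205, a retained-intron transcript of 487 nt, held 3.73% of the gene's TPM in replicate 1 and 22.1% in replicate 2. P4hb-203, of 770 nt, held 4.73% and 25.1%. Canx-202, of 708 nt, held 3.87% and 14.3%, and Calr-204, a retained-intron transcript of 943 nt, held 21.8% and 33.6%.

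Hsph1-208, a retained-intron transcript of 751 nt, held 13.3% and 23.6%, and Dnaja1-205, of 916 nt, held 49.6% and 58.6%. Manf went the other way, since its retained-intron transcript Manf-205, of 502 nt, held 41.6% in replicate 1 and 21.3% in replicate 2. The share of Hspd1-202, of 863 nt, was also lower in replicate 2, at 13.9% in replicate 1 and 8.77% in replicate 2. The 6 genes were named for the gap between their count and TPM ratios, so the direction of these shares follows from that choice.

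Of the 38 members 6 had 1 annotated transcript, and of the other 32, 19 had a leading transcript at 90% or more of the gene in both libraries, such as Atf4-201, Pdia3-201 and Hsp90ab1-201. The leading transcript moved by 10 percentage points or more between libraries in 4 members, Calr, Hsp90aa1, Manf and P4hb. It was the same in both libraries in all 32.

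A second quantification, made by the authors directly from the reads, gave the same leading transcript in 31 of these 32 members. The exception was Hsp90aa1, where Hsp90aa1-202 held 91.9% and 61.3% in the first quantification and 39.1% and 24.1% in the second, which put 58.5% and 57.0% on Hsp90aa1-201. For Hspa8 the leader kept its place but not its share, with Hspa8-201 at 65.6% and 63.6% in the first and 95.4% and 89.3% in the second. Xbp1-201 held 93.7% and 95.2% in the second.

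**Figure D4:**
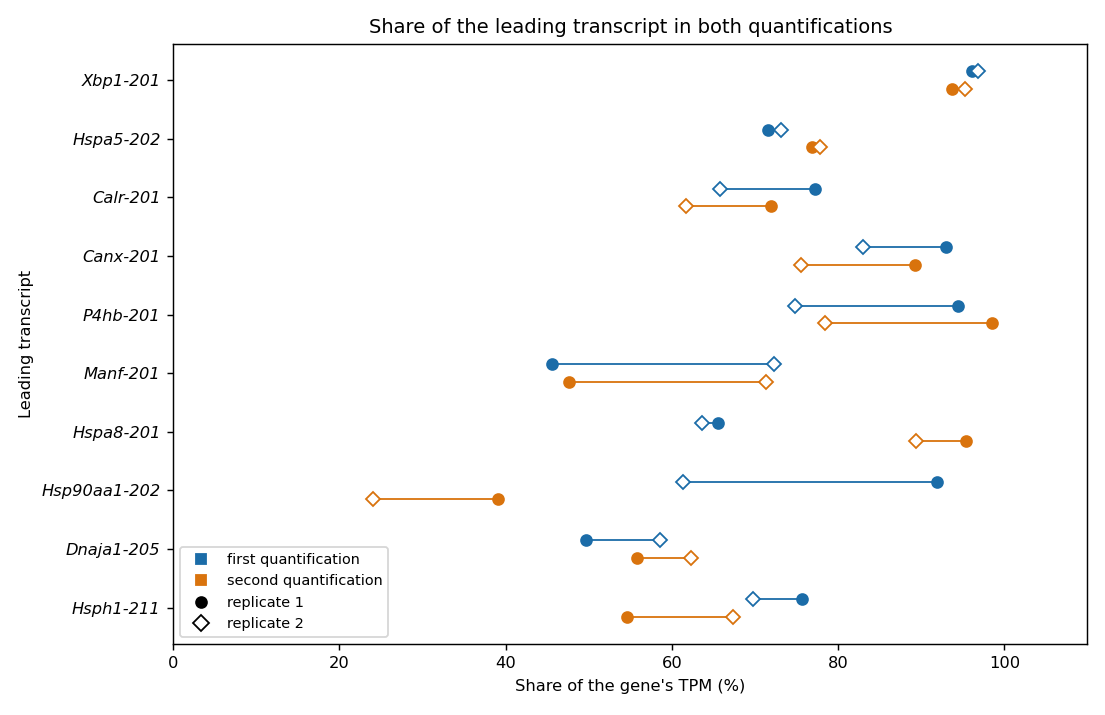
Share of the gene's TPM held by the leading transcript of 10 members, in the first quantification (blue) and the second (orange), with replicate 1 as filled circles and replicate 2 as open diamonds. Xbp1-201 lies above 90% in all 4 values, while Hsp90aa1-202 runs from 24.1% to 91.9%.

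Hspa8, Dnaja1, Hsp90aa1, Hspd1 and Hspb1 also have annotated pseudogene copies. At 95% identity or more over 200 nt or more, the leading transcript of Hspa8 matched 5 annotated pseudogenes. Those of Dnaja1 and Hsp90aa1 matched 3 each, and those of Hspd1 and Hsp90b1 matched 1 each. The Hsp90b1 match, to 1810014B01Rik, covered 273 nt of a transcript of 2825 nt and is not shown to be a copy of the gene. The pseudogenes of Hspa8 together took 305 and 398 reads in replicates 1 and 2, against 112623 and 110125 for Hspa8 itself. Those of Dnaja1 took 407 and 358 reads, against 23737 and 17708 for Dnaja1. For Hspb1, whose transcript matched the pseudogene Hsp25-ps1 with 99.4% identity over 630 nt, the second quantification put 2.49 and 0.279 reads on the pseudogene, while the first put 0 reads there and 1 read on Hspb1 in each library. With so few reads the split between Hspb1 and its copy is uncertain.

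The other genes of the same pathways, from 7 lists, had medians mostly between that of the ER chaperones and that of the integrated stress response outputs. ER translocation and signal peptide removal had all 15 genes at 10 TPM or more in both libraries and a median of 65.8 and 74.0 TPM in replicates 1 and 2. Its highest genes were Spcs1 and Spcs2, subunits of the signal peptidase, at 256 and 237 TPM and at 119.6 and 149 TPM, and the translocon-associated Ssr3 at 139 and 159.5 TPM. Its lowest were Sec63 at 18.3 and 20.6 TPM and Srprb at 17.2 and 17.8 TPM.

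ER-associated degradation, which pulls misfolded proteins back into the cytosol, had 16 of 18 genes at 10 TPM or more and a median of 38.7 and 51.5 TPM. It was led by the segregase Vcp at 184 and 200.1 TPM, the lectin Os9 at 127 and 137 TPM and Derl2 at 91.4 and 92.5 TPM, while Edem3 had 8.83 and 8.88 TPM and Derl3 0.19 and 0.18 TPM. Other ER folding and oxidation enzymes had 11 of 17 at 10 TPM or more and a median of 16.0 and 23.4 TPM. The cyclophilin Ppib led them at 369 and 345 TPM, before Erp29 at 167 and 181 TPM and Fkbp2 at 102 and 104 TPM, and the collagen chaperone Serpinh1 at 0.11 and 0.14 TPM and Fkbp14 at 0.18 and 0.22 TPM were lowest.

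Other ER stress signalling genes had 9 of 12 at 10 TPM or more and a median of 31.6 and 37.4 TPM. Tmbim6, an ER membrane protein that restrains IRE1, was highest at 616 and 588 TPM, followed by Bloc1s1, whose mRNA IRE1 is known to degrade, at 119.5 and 105 TPM, and the ligase Rtcb, which joins the cut Xbp1 ends, at 67.6 and 76.1 TPM. Creb3l2 had 0.82 and 1.09 TPM, and Ern2, the IRE1 gene of mucosal epithelia, had 0 TPM in both libraries.

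Other integrated stress response genes had 9 of 20 at 10 TPM or more and a median of 8.44 and 11.7 TPM. The stress-induced Nupr1 had 329 and 482 TPM, Atf3, a transcription factor that Toll-like receptors also induce, had 295 and 427 TPM, and the amino acid transporter chain Slc3a2 had 307 and 341 TPM. Vldlr had 0.01 TPM in each library and Stc2 had 0. Of the 18 that passed the filter, 15 were higher in replicate 2, and 2 were 2-fold or more apart, Slc7a11 at 1.74 and Ddit4 at 1.08, which were named after their values were seen. Both were low, Slc7a11 at 0.71 and 3.08 TPM and Ddit4 at 0.22 and 0.48 TPM.

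Other cytosolic heat shock proteins and co-chaperones had 17 of 25 at 10 TPM or more and a median of 21.1 and 20.3 TPM. Bag1, an Hsp70 exchange factor, led at 184 and 210.4 TPM, before the J-domain protein Dnajb6 at 165 and 203 TPM and the Hsp90 activator Ahsa1 at 161 and 165 TPM. Bag2 was at 0.44 and 0.32 TPM and the small heat shock protein Hspb8 at 0 TPM. Of the 24 that passed the filter, 15 were higher in replicate 2. Among the cytosolic members above it was 1 of 8.

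Other mitochondrial chaperones and proteases had all 7 genes at 10 TPM or more and a median of 19.0 and 22.7 TPM. The mitochondrial Hsp70 Hspa9 stood at 129 and 167 TPM, above Trap1 at 31.1 and 33.9 TPM and Dnaja3 at 20.4 and 23.0 TPM, and Grpel1 and Clpx were lowest at 15.1 and 16.1 TPM and at 13.5 and 15.9 TPM. All 7 were higher in replicate 2, with a median log2 ratio of 0.11.

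**Figure D5:**
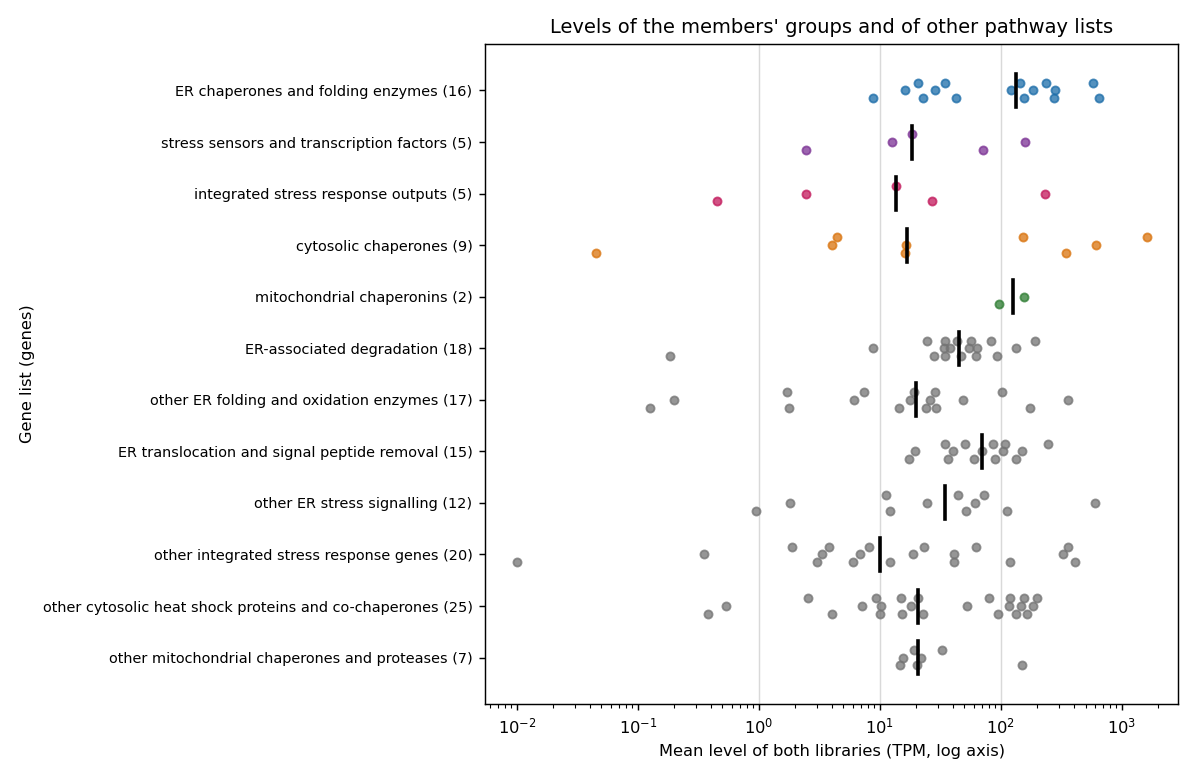
Mean level of both libraries in TPM on a log axis for the genes of 5 member groups (coloured) and of 7 other pathway lists (grey), with the number of genes in brackets and the median as a black bar. Ern2, Stc2 and Hspb8, at 0 TPM, are not drawn, and the highest medians are those of the ER chaperones and folding enzymes and of the 2 mitochondrial chaperonin genes.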

How the data were processed

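Per the file headers, the authors deposited expected counts and TPM per gene and transcript, with a posterior SD of each count (other unit, used to describe shared reads), and a transcript table of estimated counts and TPM. The README files name mm10 and GENCODE M21, give a transcriptome alignment as the parent of the first tables (first quantification), and the reads themselves as that of the last (second quantification). For the aligner, quantifiers and strand handling: not given in the sources used here. Levels are the deposited TPM, with 2 libraries and no test, since the labels give 1 group. Replicate numbers come from the labels, which say that the replicates are biological.

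Expected counts were rounded, filtered with filterByExpr and a mean count of 10 or more, scaled with TMM factors and turned into log2 ratios with a prior count of 0.5 in edgeR 4.0.16 (R 4.3.3), after a check on simulated data. A gene at 0 allows up to 3 counts, or 0.0594 CPM in replicate 1 and 0.0647 CPM in replicate 2. Members and lists were chosen with earlier results of these data known. All 38 members are named, and of each other list the 3 highest and 2 lowest genes by mean TPM, with 12 gene pairs. Ero1a and Ero1b are listed as Ero1l and Ero1lb. Motifs were searched in RefSeq promoter windows, and similar copies with BLAST 2.17.0 among the annotation's transcripts. Protein sequences were not used here. Alternatives were DESeq2 1.42.0 size factors, library totals, the second quantification, other filters, limits and prior counts, TPM rescaled over protein-coding nuclear genes, and each library alone.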

Additional observations from a re-analysis of the deposited data

How the results depend on the processing

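Of 38 members 29 reached 10 TPM, and this count stayed within 1.5 times of that under all alternatives run. The 16 members at 100 TPM or more became 8 at a limit of 200 TPM. Rescaling TPM over protein-coding nuclear genes moved median levels to 149 TPM for ER chaperones and folding enzymes, 20.6 TPM for sensors and transcription factors, 18.8 TPM for cytosolic chaperones and 142 TPM for mitochondrial chaperonins. The second quantification gave 15.4 TPM for cytosolic chaperones and 114 TPM for mitochondrial chaperonins. Members 2-fold or more apart between libraries were 0, but 1 (Chac1) in the second quantification, with no filter on low counts and by deposited TPM, the last an alternative added after seeing the data. The Xbp1-201 share of 96.5% was 94.5% in the second quantification and 98.6% by expected counts. Leading shares moved by more than their SD in 15 members in the second quantification and in 19 by expected counts, of 32 with several transcripts. Log2 ratios that changed sign were those of Hsp90ab1, to 0.015 in the second quantification, and of Hsp90b1, to -0.000091 with DESeq2 size factors. Under each alternative scaling or count, 12 or 13 of 16 ER members and 5 of 5 sensors and transcription factors were higher in replicate 2. In the second quantification, levels of 37 members lay between 0.877 and 1.06 times those of the first, and that of Hspb1, from 1 read, was 2.14 times as high. The 12 pair ratios kept their sign, but 3 moved by more than their SD in the second quantification and 2 with a pseudocount of 1 TPM. Replicate ratios moved by more than counting error in 9 of 37 members by deposited TPM. In the second quantification 6 did so, besides the sign change of Hsp90ab1. The cause of these changes was not tested. Each library alone lay within 1 SD of the mean by construction, and a ratio between 2 libraries allows none to be left out. No paired analysis was possible because there was 1 group.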
